A study of Saccharomyces cerevisiae with 24 samples.

Results

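The genes described here are 33 nuclear genes of budding yeast (Saccharomyces cerevisiae) whose names begin with MRPL and whose products belong to the large subunit of the mitochondrial ribosome. They were taken by gene ID from an array table of 6205 open reading frames (ORFs), and no measured value was used to choose them. MRPL19, which lies beside UBP10, was left out by that rule. All 33 IDs were in the table, all 33 carry an MRPL symbol in the reference annotation (assembly R64), and all 33 had enough values to be tested. The arrays compared total RNA of 4 strains, each grown in YEPD, a rich glucose medium, with RNA of UCC6408, whose DOT4 gene carries a 6Myc tag. In the annotation DOT4 is called UBP10, and it encodes a deubiquitinase of histone H2B. The 4 strains are UCC6435, labelled a dot4 null, UCC6406, with dot4-1 and the 6Myc tag, UCC6407, with dot4-5 and the 6Myc tag, and UCC6432, with DOT4 and no tag. Each strain had 3 numbered sets of 2 arrays with the dyes exchanged, which makes 24 arrays in all. The labels do not say what the 2 alleles change in the protein, how the null was made or which other markers the strains carry. UCC6432 and UCC6408 both carry wild-type DOT4 per the labels.

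The mitochondrial ribosome makes the few proteins that the mitochondrial genome encodes, nearly all of them core subunits of the respiratory chain and of ATP synthase. Its ribosomal RNAs come from mitochondrial DNA, while almost all of its proteins are encoded in the nucleus, made in the cytosol and imported. Large-subunit proteins fall into those inherited from the bacterial ancestor and those acquired by mitochondria later. Yeast growing on glucose by fermentation keeps respiration low, and genes for mitochondrial proteins are then transcribed less than during respiratory growth.

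Of the 33 members, 20 have a bacterial homologue. Among these, MRPL1 is the protein of the L1 stalk, and MRPL11 forms the base of the stalk that binds translation factors. MRPL9 and MRPL16 lie close to the peptidyl transferase centre, MRPL6 lies near the factor-binding site, and MRPL38 lies on the face that meets the small subunit. MRPL4, MRPL22, MRPL40 and MRPL8 surround the polypeptide exit tunnel, and MRPL7 and MRPL36 belong to the central protuberance. MRPL23 is the homologue of a bacterial protein that joins early in assembly, and MRPL32 is cut to its mature form by the m-AAA protease of the inner membrane. MRPL10, MRPL24, MRPL33, MRPL39, MRPL49 and MRPL50 complete this class. The other 13 members are specific to mitochondria. MRPL3 and MRPL15 have a fold like that of RNase III, MRPL17, MRPL28 and MRPL35 add to the central protuberance, and the others are MRPL13, MRPL20, MRPL25, MRPL27, MRPL31, MRPL37, MRPL44 and MRPL51.

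All values below are log2 ratios of a strain over DOT4-6Myc, centred on the median of each array. The 2 arrays of a set were averaged, and ± gives the SD over the 3 sets. The sources do not settle which channel was divided by which, so the direction is the likely one. It rests on UBP10 itself, which the opposite reading would make higher on all 6 arrays of the strain labelled dot4 null. The same turn was given to the arrays of every strain, because the dye component of the ratios correlated at 0.823 to 0.906 between strains. UBP10 was at -4.48, -4.48 and -5.11 in the sets of the strain labelled dot4 null, 25.8-fold lower than in DOT4-6Myc (limma, adjusted p = 1.22e-11). It was at -0.62 ± 0.054 in dot4-1, -0.24 ± 0.025 in dot4-5 and -0.17 ± 0.081 in untagged DOT4 (adjusted p = 7.61e-05, 0.817 and 0.202 with limma). MRPL19, the neighbour of UBP10 that is not a member, was at 0.22 ± 0.16 in the strain labelled dot4 null, 0.59 ± 0.15 in dot4-1, 0.056 ± 0.018 in dot4-5 and -1.10 ± 0.044 in untagged DOT4.

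A gene is called higher or lower where its limma p, adjusted over the 6195 ORFs tested, is under 0.05. Whether the sets are separate cultures is not stated, so the p-values reflect how far the sets scatter, and part of that scatter may be technical. The spread of each gene was estimated over all 4 strains together, so a p-value need not follow the SD of its own strain. The p-values of UBP10 in the other strains thus also carry the scatter of the strain labelled dot4 null. All 4 strains were measured against the same strain, so an error in DOT4-6Myc would enter every value. The RNA came from whole cultures, in which a change in every cell and a larger change in some of the cells cannot be told apart.

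In the strain labelled dot4 null 6 members were higher and 1 was lower, in dot4-1 15 were higher and 3 lower, in dot4-5 none was called, and in untagged DOT4 15 were higher and none lower. The share of members called was 21.2% in the strain labelled dot4 null, where 63.4% of all ORFs were called. It was 54.5% in dot4-1, against a background of 73.4%. In untagged DOT4 it was 45.5%, against a background of 25.8%. The median size of the change, without its sign, was 0.039 in the strain labelled dot4 null and 0.11 in dot4-1, against 0.17 and 0.22 over all ORFs. In dot4-5 and untagged DOT4 it was 0.065 and 0.13, against 0.027 and 0.076 over all ORFs. The typical member was thus closer to 0 than the typical ORF in the first pair of strains and farther from it in the second. The SD of the 33 means was 0.099 in the strain labelled dot4 null, 0.16 in dot4-1, 0.031 in dot4-5 and 0.052 in untagged DOT4. Over all ORFs with a value in every set the same SD was 0.32, 0.38, 0.087 and 0.16 in that order. The median of the members was 0.017 in the strain labelled dot4 null, 0.071 in dot4-1, 0.065 in dot4-5 and 0.13 in untagged DOT4, while the median of all ORFs lay between -0.010 and -0.0028.

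**Figure D1:**
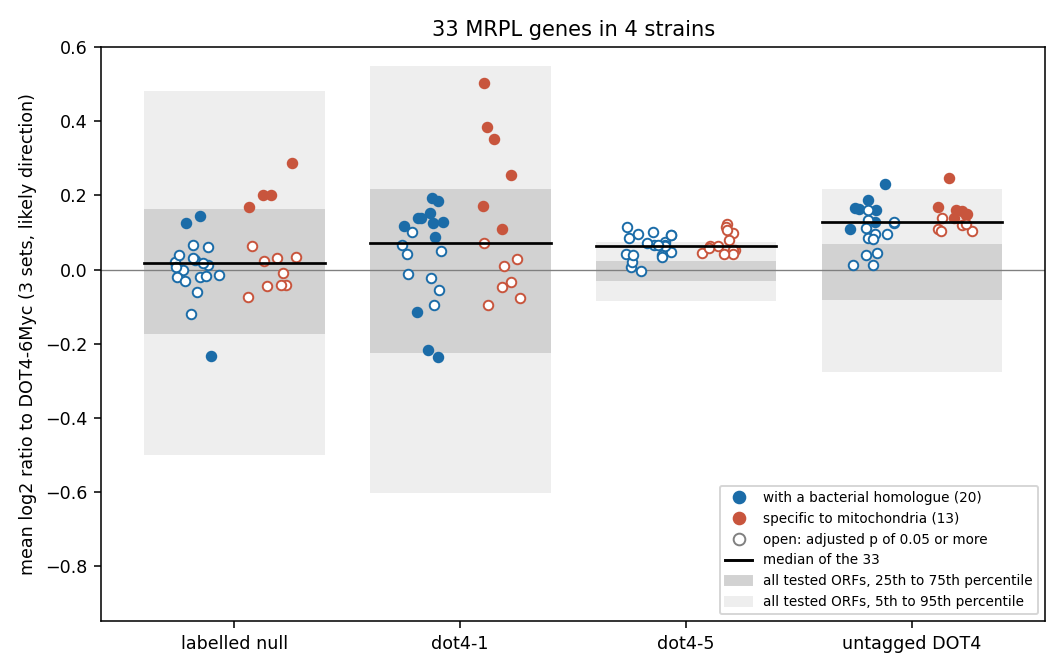
Mean log2 ratio to DOT4-6Myc (vertical axis, 3 sets, likely direction) of the 33 MRPL genes in the strain labelled dot4 null, dot4-1, dot4-5 and untagged DOT4, with members that have a bacterial homologue in blue and members specific to mitochondria in red. Filled points are called, black lines are the medians, and grey bars span the 25th to 75th and the 5th to 95th percentile of all 6195 ORFs; the members spread from -0.24 to 0.50 in dot4-1 and lie between 0.011 and 0.25 in untagged DOT4.

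Set against DOT4-6Myc, dot4-1 differs in the allele by its label, and the labels do not say what other markers these strains carry. Effects of the allele and of other differences between the strains cannot be told apart in this comparison. In dot4-1, 15 members were higher, among them 6 of the 13 specific to mitochondria and 9 of the 20 with a bacterial homologue. The 3 members that were lower all have a bacterial homologue. Of all ORFs, 35.9% were called higher and 37.5% lower. In 16 members all 3 sets were above 0, as were 41.2% of all ORFs. Without set 1, MRPL1, MRPL9, MRPL17, MRPL24, MRPL32, MRPL40 and MRPL49 were no longer called and MRPL3, MRPL8 and MRPL44 were called lower, and with arrays scaled to a common spread 5 members were higher and 2 lower.

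Among members specific to mitochondria, MRPL27 (YBR282W) was at 0.61, 0.49 and 0.41 in the 3 sets of dot4-1. These are the highest values of any member in set 1, set 2 and set 3 of that strain. Its mean of 0.50 ± 0.099 is a 1.42-fold higher level in dot4-1 (SE 0.045, limma adjusted p = 1.09e-06). MRPL15 (YLR312W-A), the RNase III-like protein, was at 0.50, 0.33 and 0.32, a mean of 0.38 ± 0.10 or 1.31-fold higher (limma adjusted p = 8.12e-06). MRPL20 (YKR085C) was at 0.43, 0.30 and 0.33, a mean of 0.35 ± 0.068 or 1.28-fold higher (limma adjusted p = 1.10e-05). Set 1 held the highest value of all 3 genes, and the lowest of their 9 set values was 0.30, in set 2 of MRPL20. MRPL31 followed at 0.25 ± 0.025, with MRPL28 of the central protuberance at 0.17 ± 0.13 and MRPL17 at 0.11 ± 0.047.

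Called members with a bacterial homologue reached at most 0.19 in dot4-1. MRPL50 led them at 0.19 ± 0.028 (limma adjusted p = 0.000142), and MRPL11, at the base of the factor-binding stalk, was at 0.19 ± 0.13. MRPL16 and MRPL9, near the peptidyl transferase centre, were at 0.15 ± 0.045 and 0.13 ± 0.076. Of the proteins around the exit tunnel, MRPL40 was at 0.14 ± 0.080 and was called, while MRPL4 at 0.042 ± 0.14, MRPL22 at -0.024 ± 0.041 and MRPL8 at -0.095 ± 0.14 were not. MRPL24, MRPL1, MRPL49 and MRPL32 make up the rest of the higher calls, at 0.14, 0.13, 0.12 and 0.089. MRPL1, the L1 stalk protein, was at 0.30, -0.016 and 0.099, so that 1 of its 3 sets was below 0. The calls of MRPL1, MRPL32 and MRPL49 were lost when dot4-1 was fitted alone.

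The lower members in dot4-1 were MRPL23, MRPL6 and MRPL39. MRPL23 (YOR150W), the homologue of an early assembly protein, was at -0.059, -0.37 and -0.28 in the 3 sets, a mean of -0.24 ± 0.16 or 1.18-fold lower (SE 0.069, limma adjusted p = 0.00861). MRPL6 (YHR147C), near the factor-binding site, was at -0.075, -0.29 and -0.29, a mean of -0.22 ± 0.12 or 1.16-fold lower (limma adjusted p = 0.000933). Set 1 stood closest to 0 for both genes, and every set was below 0. MRPL39 (YML009C) was at -0.083, -0.096 and -0.17, a mean of -0.12 ± 0.046 (limma adjusted p = 0.00786). The call of MRPL23 was lost without set 2 or set 3, and that of MRPL39 without set 3. The next members in order were MRPL3 at -0.097 ± 0.13, MRPL8 and MRPL44 at -0.076 ± 0.11, none of them called, each of which had 1 set above 0 (set 1).

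Set against DOT4-6Myc, the strain labelled dot4 null lacks the gene by its label, and the labels name no tag for it. Effects of the gene and of the tag cannot be told apart in this comparison. It gave 6 higher members and 1 lower member, where 30.7% of all ORFs were higher and 32.7% lower. Of the 6, MRPL20, MRPL27, MRPL15 and MRPL31 are specific to mitochondria and MRPL33 and MRPL50 have a bacterial homologue. In 9 members every set was above 0, as were 33% of all ORFs. The other 26 members had means between -0.12 and 0.067 and were not called.

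MRPL20 was at 0.38, 0.17 and 0.32 in the sets of the strain labelled dot4 null, a mean of 0.29 ± 0.11 or 1.22-fold higher (SE 0.042, limma adjusted p = 8.46e-05). MRPL27 was at 0.18, 0.22 and 0.21, a mean of 0.20 ± 0.022 (limma adjusted p = 0.00182). MRPL15 was at 0.15, 0.17 and 0.28, a mean of 0.20 ± 0.072 (limma adjusted p = 0.00172). All 9 of these set values lie above 0.15, and those of MRPL27 vary least. MRPL31 was at 0.17 ± 0.13, MRPL33 at 0.14 ± 0.090 and MRPL50 at 0.13 ± 0.030. The call of MRPL33 was lost without set 1 or set 3 and that of MRPL31 without set 3. With arrays scaled to a common spread, 3 members were higher and 1 was lower in the strain labelled dot4 null. On the arrays with that strain in Cy3, 4 members were higher and 6 lower, and MRPL15, MRPL27 and MRPL31 were not called.

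At the other end, MRPL6 was at -0.13, -0.32 and -0.25 in the strain labelled dot4 null, a mean of -0.23 ± 0.092 or 1.17-fold lower (SE 0.045, limma adjusted p = 0.000762). Every set was below 0, with set 1 the closest to it. MRPL23 was at 0.12, -0.25 and -0.23, a mean of -0.12 ± 0.21, and MRPL3 was at 0.12, -0.20 and -0.15, a mean of -0.074 ± 0.17. Both genes were above 0 in set 1 and below 0 in the other sets, and neither was called. Without set 1 both were called lower, at -0.24 for MRPL23 and -0.17 for MRPL3. MRPL24, MRPL37 and MRPL51 came next, at -0.060 ± 0.13, -0.044 ± 0.067 and -0.042 ± 0.021, and were not called.

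Untagged DOT4 and DOT4-6Myc differ in the tag by their labels, which do not say what other markers these strains carry. Whether the tag underlies the differences below was not tested. All 33 means were above 0, and 15 members were called higher and none lower, where 11.2% of all ORFs were higher and 14.6% lower. The 15 are 8 of the 20 members with a bacterial homologue and 7 of the 13 specific to mitochondria. The unadjusted limma p was under 0.05 for 26 members. In 30 members every set was above 0, as were 27% of all ORFs. The sizes were small, from 0.011 to 0.25.

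MRPL28 (YDR462W), of the central protuberance, was at 0.25, 0.28 and 0.21 in the sets of untagged DOT4, a mean of 0.25 ± 0.033 or 1.19-fold higher (SE 0.042, limma adjusted p = 0.00129). MRPL16 (YBL038W), near the peptidyl transferase centre, was at 0.23, 0.27 and 0.20, a mean of 0.23 ± 0.033 or 1.17-fold higher (limma adjusted p = 0.000802). MRPL32 (YCR003W) was at 0.14, 0.23 and 0.19, a mean of 0.19 ± 0.045 (limma adjusted p = 0.00209). Set 2 held the highest value of all 3 genes. MRPL27 at 0.17 ± 0.098, MRPL1 at 0.17 ± 0.031 and MRPL11 at 0.16 ± 0.041 followed, and MRPL9, MRPL10, MRPL15, MRPL17, MRPL25, MRPL37, MRPL40, MRPL49 and MRPL51 complete the calls. MRPL23, which was lower in dot4-1, was at 0.16 ± 0.076 in untagged DOT4 and was not called.

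The lowest members in untagged DOT4 were MRPL4 at 0.019, -0.0065 and 0.021 in the 3 sets, MRPL39 at -0.065, 0.058 and 0.044, and MRPL33 at 0.061, 0.049 and 0.0065. Each was within 0.065 of 0 in every set. Above them came MRPL50 at 0.044 ± 0.036, MRPL38 at 0.084 ± 0.0080 and MRPL22 at 0.085 ± 0.0045, none of them called. The count of calls depended on the sets and on the centring. It was 9 without set 1, 4 without set 2 and 6 without set 3, and MRPL16, MRPL28 and MRPL32 kept their calls in each of these fits. It was 7 on the arrays with untagged DOT4 in Cy3 and 24 with arrays scaled to a common spread, where the share of all ORFs called was not counted. Without centring no member was called with limma, with all ORFs at a median of -0.084 and the members at 0.050. Centring shifts all ORFs of an array alike. The median of the members minus that of all ORFs, 0.13, therefore could not change and does not test the centring.

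In dot4-5 the ratios of the members to DOT4-6Myc were small but mostly above 0. None of the 33 was called with limma, where 1.03% of all ORFs were called and 0.92% were called higher, and 6 had an unadjusted p under 0.05. All but 1 of the means were above 0, in a range from -0.0040 to 0.12, where 47.1% of all ORFs had a mean above 0. In 25 members all 3 sets were above 0, as were 16.7% of all ORFs. MRPL13 (YKR006C) was at 0.11, 0.095 and 0.16 in the 3 sets of dot4-5, MRPL23 at 0.093, 0.11 and 0.14, and MRPL35 at 0.037, 0.18 and 0.12. MRPL23 thus lay above 0 in each set of dot4-5 and below 0 in each set of dot4-1. MRPL37, MRPL8 and MRPL20 were at 0.11 ± 0.069, 0.10 ± 0.056 and 0.099 ± 0.046. The lowest were MRPL22 at 0.029, -0.051 and 0.0095, MRPL4 at 0.090, 0.024 and -0.093, and MRPL24 at 0.029, -0.052 and 0.088, each with sets on both sides of 0. MRPL11, MRPL32 and MRPL10 followed at 0.033 ± 0.014, 0.038 ± 0.069 and 0.039 ± 0.025. With arrays scaled to a common spread, 10 members were called higher in dot4-5. The scaling widened the ratios of this strain, and the share of all ORFs called with it was not counted.

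The sets of a strain differed in how far the members lay from 0 as a group. In the strain labelled dot4 null the median of the 33 was 0.091, -0.041 and 0.033 in sets 1, 2 and 3, with 24, 10 and 20 members above 0. In dot4-1 it was 0.15, 0.0015 and 0.057, with 29, 17 and 22 members above 0. Set 1 was thus the highest and set 2 the lowest in both strains. In dot4-5 the medians were 0.085, 0.028 and 0.085, with 33, 26 and 32 members above 0. Untagged DOT4 had medians of 0.13, 0.13 and 0.11, with 32 members above 0 in each set. The order of the members was alike from set to set in dot4-1, where the correlation across the 33 genes was 0.86 to 0.94 between sets. It was 0.42 to 0.90 in the strain labelled dot4 null, 8.07e-05 to 0.21 in dot4-5 and 0.12 to 0.41 in untagged DOT4. Across all ORFs the lowest correlation between sets was 0.75, 0.88, 0.52 and 0.67 in the same order of strains, with sets of a strain sharing both the strain and the array design.

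**Figure D2:**
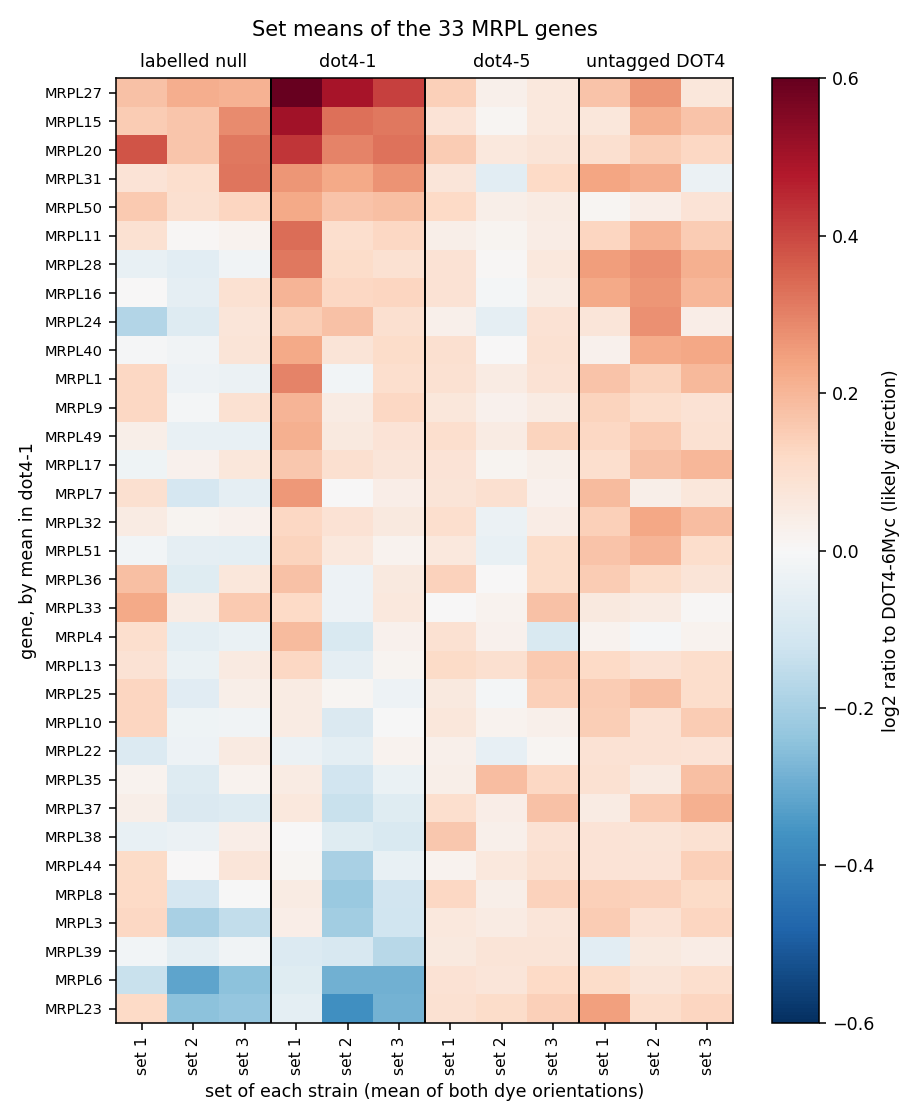
Log2 ratio to DOT4-6Myc (colour, red higher and blue lower, likely direction) of the 33 MRPL genes (rows, by their mean in dot4-1) in the 3 sets (columns) of the strain labelled dot4 null, dot4-1, dot4-5 and untagged DOT4. In dot4-1 the sets of MRPL27 run from 0.41 to 0.61 and those of MRPL23 from -0.37 to -0.059, while the columns of dot4-5 and untagged DOT4 are mostly pale red.

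The strains were then set against each other through the strain they share as control. Between dot4-1 and dot4-5, which both carry the 6Myc tag, 6 members were higher in dot4-1 and 6 lower, where 61% of all ORFs were called, 29.6% higher and 31.4% lower. MRPL27 was at 0.50 ± 0.099 in dot4-1 and 0.080 ± 0.058 in dot4-5, a difference of 0.42 (95% interval 0.29 to 0.56, limma adjusted p = 0.000157). The differences of MRPL15, MRPL20 and MRPL31 were 0.33, 0.25 and 0.21. MRPL23 was at -0.24 ± 0.16 in dot4-1 and 0.12 ± 0.024 in dot4-5, a difference of -0.35 (95% interval -0.56 to -0.14, limma adjusted p = 0.00858). MRPL6, MRPL8 and MRPL39 were lower in dot4-1 by differences of -0.31, -0.20 and -0.19. The sets of dot4-1 and dot4-5 did not overlap for any of these genes except MRPL8, whose set 1 in dot4-1 was at 0.052 and whose set 2 in dot4-5 was at 0.037. Sets of these strains that do not overlap were found in 71.7% of all ORFs. Without set 3 of dot4-1, 7 members were called. Without centring 5 were called, and MRPL8, MRPL31 and MRPL39 were not among them. MRPL31 also lost its call with the set number as a block, and 5 members were called on the arrays with dot4-1 and dot4-5 in Cy3. With arrays scaled to a common spread, 10 members were lower in dot4-1 and none was higher.

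Between dot4-1 and untagged DOT4, 4 members were higher and 9 lower, where 62.8% of all ORFs were called, 31.6% higher and 31.1% lower. MRPL27 was at 0.50 ± 0.099 in dot4-1 and 0.17 ± 0.098 in untagged DOT4, a difference of 0.34 (95% interval 0.20 to 0.47, limma adjusted p = 0.000615). MRPL15, MRPL20 and MRPL50 were higher by 0.23, 0.23 and 0.15. MRPL23 was at -0.24 ± 0.16 in dot4-1 and 0.16 ± 0.076 in untagged DOT4, a difference of -0.40 (95% interval -0.61 to -0.18, limma adjusted p = 0.00385). MRPL6, MRPL8 and MRPL3 differed by -0.31, -0.23 and -0.22. The 4 higher calls hold without centring, where 2 members were lower, while with arrays scaled to a common spread none was higher and 9 were lower. The total was 6 without set 2 of dot4-1, 8 without its set 3, and 7 without set 3 of untagged DOT4, of which 4 were higher and 3 lower. It was 8 on the arrays with dot4-1 and untagged DOT4 in Cy3, of which 4 were higher and 4 lower.

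Between the strain labelled dot4 null and untagged DOT4, for which the labels name no tag, 1 member was higher and 10 were lower, where 54.9% of all ORFs were called, 27.7% higher and 27.2% lower. MRPL6 was at -0.23 ± 0.092 in the strain labelled dot4 null and 0.097 ± 0.016 in untagged DOT4, a difference of -0.33 (95% interval -0.47 to -0.19, limma adjusted p = 0.000904). MRPL28 was at -0.042 ± 0.022 in the strain labelled dot4 null and 0.25 ± 0.033 in untagged DOT4, a difference of -0.29 (95% interval -0.42 to -0.16, limma adjusted p = 0.00131). The sets of the 2 strains did not overlap for either gene, as in 57.8% of all ORFs. MRPL23 and MRPL16 differed by -0.28 and -0.22. MRPL20 was the one member higher in the strain labelled dot4 null, by 0.17 (95% interval 0.036 to 0.30, limma adjusted p = 0.0320), and MRPL33, MRPL50 and MRPL15 differed by 0.11, 0.082 and 0.050 and were not called. The call of MRPL20 was lost in each fit that left out 1 set, other than the fit without set 2 of the strain labelled dot4 null, and in either dye orientation alone. The total was 6 without set 2 of the strain labelled dot4 null, 5 without set 2 of untagged DOT4 and 7 without its set 3. Without centring 1 member was higher and 1 lower, and with arrays scaled to a common spread 12 were lower and none was higher.

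**Figure D3:**
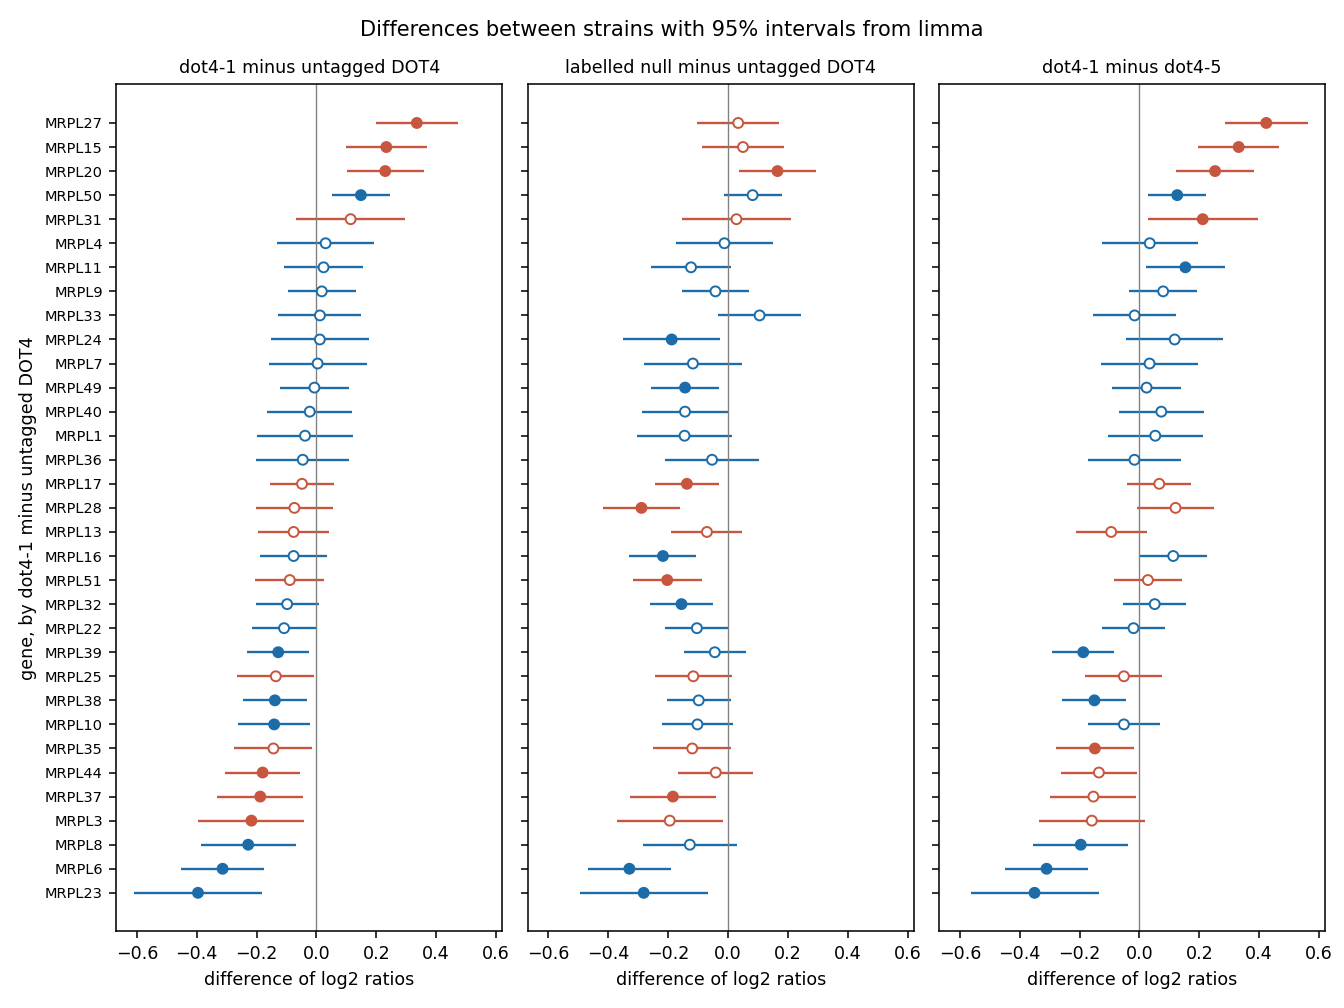
Differences of log2 ratios between strains (horizontal axes) for the 33 MRPL genes (rows), with 95% intervals from limma, blue for members with a bacterial homologue and red for members specific to mitochondria; filled points are called. MRPL27 lies farthest to the right in both panels of dot4-1, at 0.34 against untagged DOT4 and 0.42 against dot4-5, and MRPL23 farthest to the left, at -0.40 and -0.35.

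Some features that played no part in the choice of genes were set beside these values. The coding length of the members runs from 213 to 1173 bases, and Spearman's rho between length and the mean ratio over the 33 genes was -0.14 in the strain labelled dot4 null, -0.036 in dot4-1, -0.23 in dot4-5 and -0.0030 in untagged DOT4. Of the members, 18 have a measured neighbour that is transcribed away from them on their 5′ side in assembly R64, and 11 of these 18 were called in dot4-1, where 73.4% of all ORFs were called. Of the 11, 6 had such a neighbour called the same way and 2 had one called the other way. Pairs of this kind were not counted over all ORFs, of which 35.9% were called higher and 37.5% lower in dot4-1. Only some of the pairs with a member are named here. MRPL20 at 0.35 lies beside PRP16, a splicing helicase gene, which was higher at 0.42 ± 0.083 in dot4-1. MRPL23 at -0.24 lies beside SMP3, a gene of glycolipid anchor synthesis, which was lower at -0.41 ± 0.049. MRPL6 at -0.22 lies beside IMP3, a gene of cytosolic ribosome assembly, which was higher at 0.71 ± 0.049, and MRPL32 at 0.089 lies beside the septin gene CDC10, which was lower at -0.26 ± 0.027. MRPL27 and MRPL15 lie beside DUG2 and ATG39, at 0.0023 ± 0.015 and 0.035 ± 0.018, which were not called. The part of shared promoter regions in these values was not tested.

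Other genes of mitochondrial translation were described in the same fits. The 11 measured large-subunit genes with other names had medians of -0.071 in the strain labelled dot4 null, 0.022 in dot4-1, 0.043 in dot4-5 and 0.13 in untagged DOT4. In dot4-1, 3 of them were higher and 4 lower, led by MHR1, which also acts in mitochondrial DNA recombination, at 0.27 ± 0.081, by IMG2 at -0.27 ± 0.049 and by the stalk protein gene MNP1 at -0.27 ± 0.13. The share of these genes called in dot4-1 was 63.6%, below the 73.4% of all ORFs. Of 33 small-subunit genes, 12 were higher and 6 lower in the strain labelled dot4 null, 16 higher and 7 lower in dot4-1, none was called in dot4-5, and 15 were higher and none lower in untagged DOT4. Their medians were 0.061, 0.12, 0.058 and 0.13 in that order of strains. The share called was 54.5% in the strain labelled dot4 null and 69.7% in dot4-1, below the 63.4% and 73.4% of all ORFs, and 45.5% in untagged DOT4, above the 25.8% of all ORFs. MRPS12 was lowest among them in dot4-1 at -0.48 ± 0.12, and RSM22, a methyltransferase-like protein of the small subunit, was highest at 0.44 ± 0.097.

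Genes that act with the ribosome had other medians. Of 9 mitochondrial translation factors, none was higher and 6 were lower in the strain labelled dot4 null, at a median of -0.20, led by the formyltransferase gene FMT1 at -0.38 ± 0.060. In dot4-1, 1 was higher, GUF1 at 0.43 ± 0.082, and 5 were lower. The share of these factors called was 66.7% in both strains, against 63.4% and 73.4% of all ORFs. Of 13 mitochondrial aminoacyl-tRNA synthetases, none was higher and 6 were lower in the strain labelled dot4 null, with the tryptophan enzyme MSW1 at -0.30 ± 0.10, 2 were higher and 3 lower in dot4-1, and 4 were higher in untagged DOT4. The share called was 46.2% in the strain labelled dot4 null, 38.5% in dot4-1 and 30.8% in untagged DOT4, against 63.4%, 73.4% and 25.8% of all ORFs. Of 7 genes of mitochondrial transcription and ribosomal RNA, 6 were higher in dot4-1 at a median of 0.25, led by MRH4, an RNA helicase needed for large-subunit assembly, at 0.46 ± 0.11. Of 11 translational activators, 6 were higher and 3 lower in dot4-1, with CBP1, which stabilises the cytochrome b transcript, at 0.44 ± 0.029 and PET122, an activator of COX3 translation, at -0.48 ± 0.053. In dot4-1, 85.7% of the transcription and ribosomal RNA genes and 81.8% of the activators were called, against 73.4% of all ORFs.

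The nuclear genes of the respiratory chain and ATP synthase were counted in the same way. Of 35 such genes, 1 was higher and 24 lower in the strain labelled dot4 null and 3 were higher and 23 lower in dot4-1, at medians of -0.26 and -0.28. The share called was 71.4% and 74.3%, against 63.4% and 73.4% of all ORFs. SDH2, of succinate dehydrogenase, was lowest in both, at -0.66 ± 0.28 and -0.72 ± 0.20, and COX4 was at -0.57 ± 0.28 and -0.58 ± 0.23. In untagged DOT4, 15 were higher and none lower at a median of 0.19, led by the cytochrome c1 gene CYT1 at 0.58 ± 0.13. The share called there was 42.9%, against 25.8% of all ORFs. None was called in dot4-5, at a median of 0.059. Of 76 genes of the cytosolic large subunit, 22 were higher and 31 lower in the strain labelled dot4 null, 16 higher and 49 lower in dot4-1, none was called in dot4-5, and none was higher and 58 were lower in untagged DOT4. Their medians were -0.080, -0.21, 0.014 and -0.16 in that order of strains. The share called was 69.7% in the strain labelled dot4 null, 85.5% in dot4-1 and 76.3% in untagged DOT4. Of all ORFs, 63.4%, 73.4% and 25.8% were called in these strains. In untagged DOT4 the mitochondrial and cytosolic large-subunit genes thus lay on opposite sides of the array median, and whether the 2 lists moved for 1 reason was not tested.

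**Figure D4:**
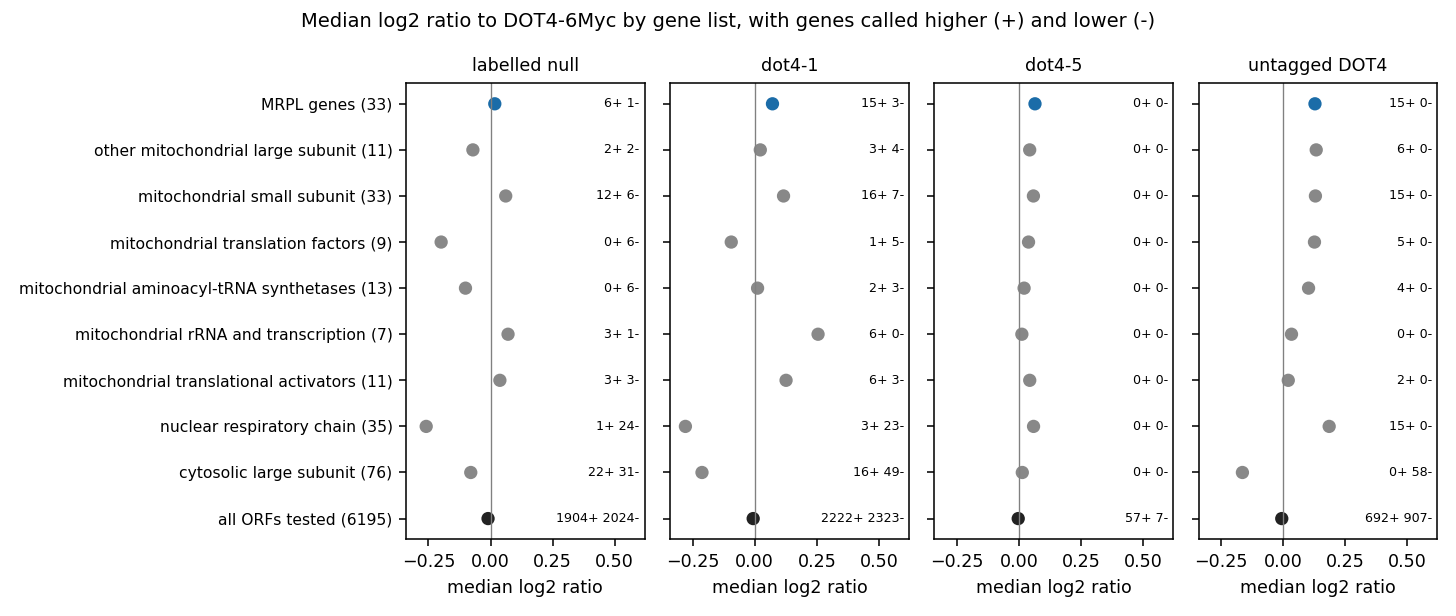
Median log2 ratio to DOT4-6Myc (horizontal axes, likely direction) of the 33 MRPL genes (blue), 8 other gene lists (grey) and all ORFs tested (black) in the strain labelled dot4 null, dot4-1, dot4-5 and untagged DOT4, with the number of genes called higher (+) and lower (-) at the right of each row. In dot4-1 the MRPL genes are at 0.071, between the mitochondrial small subunit at 0.12 and the respiratory chain at -0.28, and in untagged DOT4 they are at 0.13 while the cytosolic large subunit is at -0.16.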

How the data were processed

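The series measured transcript ratios between pairs of yeast strains on 24 two-colour arrays, 6 for each of 4 strains. The deposited values are log2 ratios, 1 per ORF and array. No label names the scale. Log2 was inferred because the exact log2 of 3 occurred in 19 cells and that of 2.5 in 11, where nearby values averaged 0.3 and 1.2 cells. Of 148920 cells, 83 were empty. For array type, scanner, background correction and normalization no information is given in the sources used here, and the number of arrays limits the precision.

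The median of each array was subtracted and its ratios were turned to the strain over DOT4-6Myc, which is opposite to the order in the labels. Turning every sign back leaves each count of calls the same with higher and lower exchanged. The 2 arrays of a set were averaged, which gave 12 values per ORF. In R 4.3.3, limma 3.58.1 (lmFit, eBayes) estimated a mean per strain without covariates, with 8 residual degrees of freedom shared by the 4 strains. ORFs with values in fewer than 2 of the 3 sets in any strain were removed, 10 in all, and 6195 were tested. The two-sided p-values were adjusted by Benjamini and Hochberg's method over all ORFs in each of 7 comparisons, with a threshold of 0.05. Of the IDs, 5705 of 6205 matched the annotation (R64), which gave symbols, coding lengths and neighbours. No ORF of mitochondrial DNA was found among the IDs, so none was analysed here, and no sequence was used.

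The members, the other gene lists and the tests were chosen with earlier results of these data known. Named are UBP10, MRPL19, the 6 highest and 6 lowest members of each strain with any call against the majority, the 4 highest and 4 lowest of each difference of strains, and up to 3 genes of each other list. The neighbouring genes named were chosen after their values were seen. Alternatives were no centring, arrays scaled to a common spread, each dye orientation alone, separate arrays with a dye term, other filters, a block for the set number, a fit of each strain alone, and each set left out. Plots used matplotlib 3.10.9 under Python 3.11.15.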

Additional observations from a re-analysis of the deposited data

Results flagged for a closer look

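In 8 cases the effects in 2 strains lay on opposite sides of DOT4-6Myc in every set and the difference itself passed the limma test. In no case were both strains called against DOT4-6Myc. How many of all ORFs meet this rule was not counted. Sets that merely do not overlap were found in 71.7% of all ORFs between dot4-1 and dot4-5. Between the strain labelled dot4 null and untagged DOT4 they were found in 57.8%. No explanation was weighed.

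MRPL6 accounted for 3 of the 8. It was at -0.23 ± 0.092 in the strain labelled dot4 null and 0.097 ± 0.016 in untagged DOT4, a difference of -0.33 (limma adjusted p = 0.000904). In dot4-1 it was at -0.22 ± 0.12, which differs by -0.31 from untagged DOT4 (limma adjusted p = 0.00109) and by -0.31 from dot4-5 at 0.093 ± 0.024 (limma adjusted p = 0.00138).

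MRPL23 was at -0.24 ± 0.16 in dot4-1, with differences of -0.40 from untagged DOT4 at 0.16 ± 0.076 (limma adjusted p = 0.00385) and -0.35 from dot4-5 at 0.12 ± 0.024 (limma adjusted p = 0.00858). MRPL39 was at -0.12 ± 0.046 in dot4-1 and 0.072 ± 0.011 in dot4-5, a difference of -0.19 (limma adjusted p = 0.00473).

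MRPL28 was at -0.042 ± 0.022 in the strain labelled dot4 null and 0.25 ± 0.033 in untagged DOT4, a difference of -0.29 (limma adjusted p = 0.00131). MRPL51 was at -0.042 ± 0.021 in the strain labelled dot4 null and 0.16 ± 0.050 in untagged DOT4, a difference of -0.20 (limma adjusted p = 0.00602).

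The comparisons share the DOT4-6Myc control, and a strain enters more than 1 of them, so the 8 cases are not independent of each other. Without centring, the differences of MRPL28 and MRPL51 between the strain labelled dot4 null and untagged DOT4 and that of MRPL39 between dot4-1 and dot4-5 were no longer called, while those of MRPL6 and MRPL23 were. Groups of 3 sets are too small for a test of single outlying sets.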

How the results depend on the processing

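Without centring, the calls were 0 in untagged DOT4 (median of the members 0.050), 2 between the strain labelled dot4 null and untagged DOT4 (median -0.019), 6 between dot4-1 and untagged DOT4 (4 higher and 2 lower, median 0.019) and 5 between dot4-1 and dot4-5. With arrays scaled to a common spread they were 4 in the strain labelled dot4 null, 7 in dot4-1, 10 in dot4-5 (median 0.13) and 24 in untagged DOT4 (median 0.16), and the median between dot4-1 and dot4-5 was -0.063. On arrays with the compared strain in Cy5 they were 11 in the strain labelled dot4 null and 2 in dot4-5, and the median in untagged DOT4 was 0.17. On arrays with it in Cy3 they were 10 in the strain labelled dot4 null (4 higher and 6 lower), 7 in untagged DOT4 (median 0.078), 8 between dot4-1 and untagged DOT4 and 5 between dot4-1 and dot4-5. Fitted alone, the strain labelled dot4 null gave 4. For these alternatives the share of all ORFs called was not counted.

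With 1 set left out at a time, the calls ranged from 4 to 9 in untagged DOT4, from 5 to 13 between the strain labelled dot4 null and untagged DOT4, from 6 to 15 between dot4-1 and untagged DOT4, and from 7 to 13 between dot4-1 and dot4-5. With the set number as a replicate block, they were 7 in the strain labelled dot4 null, 19 in dot4-1, 0 in dot4-5, 20 in untagged DOT4, and 11, 13 and 11 for the 3 differences in the order null minus untagged, dot4-1 minus untagged and dot4-1 minus dot4-5. The deviations of sets with the same number correlated at -0.303 to 0.672, above 0.1 in 7 of 18 pairs, and 6 of 12 sets correlated best with their own number, so the numbers were not taken as a pairing. Other filters left every count as it was. Over 912 refits of 72 named results, 805 kept their direction and side of the threshold, 88 lost the call, 19 gained one and 0 changed direction while called. The 912 include the other filters, which changed no count. They also include results without a call, such as those of dot4-5, which had none to lose. The causes of the changes in this section were not tested.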

Other observations

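The 2 dye orientations gave the members different medians in untagged DOT4, at 0.17 with the untagged strain in Cy5 and 0.078 with it in Cy3, and the direction was the same in both.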
